A study of Mus musculus with 15 samples.

Results

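Hox genes were read here as markers of position along the colon. The set holds 38 Hox genes, listed by gene name and chosen with earlier results of these data known. Of them 33 have at least 1 probe set annotated to that gene symbol alone, among 18194 genes with such a probe set. Where a gene has several, the probe set brightest on average over the 15 arrays stands for it. Of the 33 genes, 11 had a signal over 20, which is 4.32 on the log2 scale, on at least 6 arrays and were tested, among 9257 tested genes in all.

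Hox genes encode transcription factors that bind DNA through a homeodomain, and in mammals they stand in clusters named A to D. Within a cluster the genes are numbered by paralog group, and in the embryo the low numbers are expressed from more anterior levels and the high numbers only at posterior levels. The hindgut, from which the distal colon and rectum arise, is the domain of paralog group 13, and adult gut keeps part of this embryonic pattern.

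The tissue was RNA from scrapings of colons opened lengthwise, which take up mucosa from a length of bowel without a record of where along the colon the scraping began and ended. The heme group was 9 male C57BL/6 mice of 11 weeks that ate a diet high in fat (40% of energy) and low in calcium with heme, the iron-porphyrin pigment of red meat, at 0.5 umol per g for 14 days. The control group was 6 male C57BL/6 mice of the same age on the same high-fat, low-calcium diet without heme for 14 days. Each mouse gave 1 Affymetrix array with no pooling, and control replicate 5 was not analysed here. Values are log2 expression per probe set, array medians ran from 3.11 to 3.24, and precision is limited by how many arrays there are.

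The scrapings carried the markers of epithelium. All 8 epithelial markers were over the floor on at least 6 arrays, and their summed linear signal ran from 82634 to 91123 in heme mice and from 81447 to 85083 in controls. In the test described below 3 of the 8 rose in heme mice and 1 fell, against 27.2% and 26.4% of all tested genes. Of 10 smooth muscle markers 4 were tested (Acta2, Myh11, Tagln and Actg2), and all 4 fell in heme mice, against the same 26.4%. Myh11 was over the floor in 6 heme mice and Actg2 in 3, and both in all 6 controls. The summed signal of the 4 ran from 306 to 856 in heme mice and from 559 to 5449 in controls. Of 8 stromal markers 7 were tested and 0 passed the test in either direction, with sums of 1123 to 3250 in heme mice and 1190 to 10568 in controls. Control mouse 2 gave the highest sum of both lists. No tested gene remained among 5 endothelial, 8 enteric nervous, 5 T cell and 5 macrophage markers. Of 5 B and plasma cell markers 1 was tested, Jchain, which did not pass (adjusted p of 0.269 in limma). Jchain ran from 10.54 to 12.24 in heme mice, and in controls from 10.12 in mouse 4 to 12.93 in mouse 2. In bulk samples of this kind, fewer cells of a type and less RNA per cell cannot be told apart.

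The Hox genes that the scrapings expressed came almost entirely from clusters A and B. In cluster A 6 of 9 genes with a probe set were tested (Hoxa3, Hoxa5, Hoxa7, Hoxa9, Hoxa10 and Hoxa13), in cluster B 4 of 9 (Hoxb3, Hoxb5, Hoxb6 and Hoxb13), in cluster D 1 of 8 (Hoxd13), and in cluster C 0 of 7. The highest value of any cluster C gene on any array was 2.89. By number, 6 of 19 genes of paralog groups 1 to 8 with a probe set were tested, and 5 of 14 genes of groups 9 to 13.

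The tested genes differed in how often they passed the floor. Hoxa3, Hoxa5, Hoxa9, Hoxb3, Hoxb5 and Hoxb6 were over it on all 15 arrays. Hoxa10, Hoxa13, Hoxb13 and Hoxd13 were over it on 14 arrays each, and the array under it was control mouse 4 for each of the 4 genes. Hoxa7 was over it on 7 arrays, 3 of heme mice and 4 of controls. The tested Hox genes are drawn with the untested ones in the grid of clusters and paralog numbers.

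**Figure D1:**
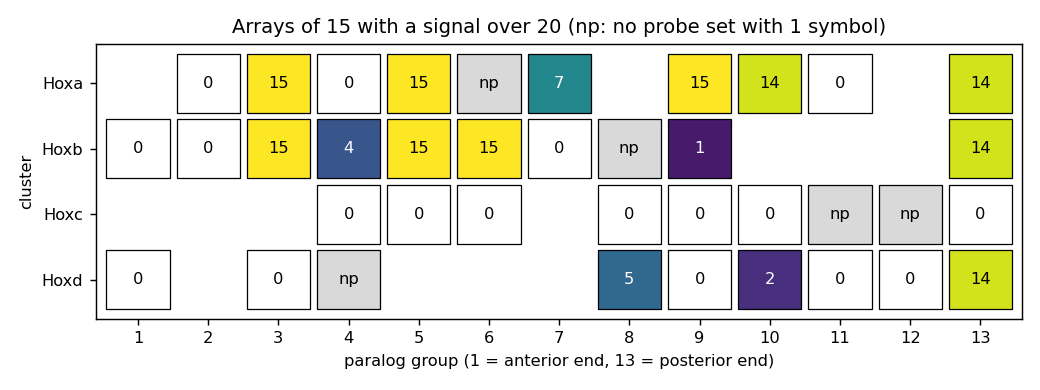
Grid of the 38 listed Hox genes, with cluster A to D down the page and paralog number across, each cell giving the number of arrays of 15 with a signal over 20, and np in grey for genes without a probe set of 1 symbol. Counts of 14 or 15 lie in clusters A and B and, for Hoxd13, at the posterior end of cluster D, and every cluster C gene with a probe set is at 0.

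Another 4 genes passed the floor on 1 to 5 arrays and were not tested. Hoxb4 ran from 3.46 to 3.92 in heme mice and from 3.90 to 4.96 in controls, and passed the floor on 4 arrays, all of controls. Hoxd8 ran from 3.45 to 4.53 in heme mice and from 3.32 to 5.37 in controls, over the floor on 1 heme array and 4 control arrays. Hoxd10 ran from 2.12 to 3.59 in heme mice and from 1.98 to 5.88 in controls, and passed it in 2 controls. Hoxb9 ran from 3.45 to 4.60 in heme mice and from 3.23 to 3.85 in controls, over the floor in 1 heme mouse. These groups overlap in each of the 4 genes. In Hoxb4 8 of 9 heme mice read below all controls, and in Hoxb9 5 of 9 read above all controls. The controls that set these limits, at 3.90 and 3.85, are under the floor, where values have no order.

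The remaining 18 genes with a probe set were not over the floor on any array. They are Hoxa2, Hoxa4 and Hoxa11 of cluster A, Hoxb1, Hoxb2 and Hoxb7 of cluster B, the 7 genes of cluster C (Hoxc4, Hoxc5, Hoxc6, Hoxc8, Hoxc9, Hoxc10 and Hoxc13), and Hoxd1, Hoxd3, Hoxd9, Hoxd11 and Hoxd12 of cluster D. A probe set under the floor gives only an upper bound on the signal. Hoxa6, Hoxb8, Hoxc11, Hoxc12 and Hoxd4 have no probe set of their own symbol alone, and their levels are not given here.

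Promoters of 3 posterior genes that were under the floor in control mouse 4 alone, Hoxd13, Hoxa10 and Hoxa13, are printed here, from 250 bases before to 50 after the start in the RefSeq table for build GRCm38.p6, 5′ to 3′ on the strand of the gene. Capitals mark TTTAT or its reverse complement ATAAA, a core that Cdx homeodomain factors are known to bind. The windows are chr2:74667975-74668274 on the plus strand for Hoxd13, chr6:52234890-52235189 on the minus strand for the promoter of Hoxa10 nearer to Hoxa9, and chr6:52260831-52261130 on the minus strand for Hoxa13.
Hoxd13: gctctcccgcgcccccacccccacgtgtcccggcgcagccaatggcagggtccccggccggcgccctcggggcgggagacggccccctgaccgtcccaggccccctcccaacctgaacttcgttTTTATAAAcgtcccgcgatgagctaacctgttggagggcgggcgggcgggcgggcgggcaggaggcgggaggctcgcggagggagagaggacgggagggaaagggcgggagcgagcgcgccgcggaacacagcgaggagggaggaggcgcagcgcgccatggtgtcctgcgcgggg
Hoxa10: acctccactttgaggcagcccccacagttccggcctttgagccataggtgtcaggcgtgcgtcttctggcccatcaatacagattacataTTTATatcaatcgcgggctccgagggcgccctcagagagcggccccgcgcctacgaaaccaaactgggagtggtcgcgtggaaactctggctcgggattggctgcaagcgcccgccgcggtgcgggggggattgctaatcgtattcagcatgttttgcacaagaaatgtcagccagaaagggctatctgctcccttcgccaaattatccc
Hoxa13: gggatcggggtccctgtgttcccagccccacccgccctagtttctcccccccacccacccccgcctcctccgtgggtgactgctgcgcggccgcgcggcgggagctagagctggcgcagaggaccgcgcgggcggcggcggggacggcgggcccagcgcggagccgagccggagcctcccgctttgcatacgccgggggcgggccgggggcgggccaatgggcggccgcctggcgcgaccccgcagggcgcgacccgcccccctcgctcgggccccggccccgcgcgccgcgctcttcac

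The Hoxd13 window holds 2 matches that overlap each other and 37 CpG dinucleotides, the Hoxa10 window 1 match and 21 CpG, and the Hoxa13 window no match and 45 CpG. The RefSeq table gives 8 such windows for 7 of the 11 tested Hox genes, and 4 windows (50.0%) hold the motif on either strand, against 13143 of 32851 windows of all genes (40.0%). The median CpG count was 20.5 in the windows of tested Hox genes and 7 in all windows. A match describes letters in the window and is not a binding site measured here.

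Heme was then set against control for each tested gene with limma, with Benjamini-Hochberg adjustment over all 9257 genes. Of the 11 genes 3 fell in heme mice at an adjusted p under 0.05, and 0 rose, with 1 gene higher at an unadjusted p under 0.05 (Hoxa13). Over all tested genes 26.4% were called lower and 27.2% higher, so the share of Hox genes called lower is near the background. All 3 genes that fell are anterior members of cluster B, Hoxb3, Hoxb5 and Hoxb6, and none of the 5 tested genes of paralog groups 9 to 13 was called. The median log2 fold change of the 11 genes was -0.19, beside -0.01 over all tested genes.

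Hoxb5, whose product is known from the development of enteric neurons, fell most of the 11. It ran from 4.68 to 5.77 in heme mice with a median of 5.33, and from 6.26 to 7.54 in controls with a median of 6.95. All 9 heme mice lay below every control. The means were 5.26 ± 0.36 in heme mice and 6.94 ± 0.45 in controls (SD, n = 9 and 6). The difference was -1.68 ± 0.19 on the log2 scale (SE), or 3.20-fold lower in heme mice, with an adjusted p of 5.41e-06 in limma. Hoxb5 is the 1 of 11 genes whose groups did not overlap with heme lower, and 8.93% of all tested genes had that pattern.

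Hoxb6, the neighbour of Hoxb5 and a gene of the trunk in the embryo, ran from 7.77 to 8.78 in heme mice with a median of 8.11, and from 8.44 to 9.88 in controls with a median of 8.92. The groups overlapped, with 6 of 9 heme mice below all controls. Its mean was 8.19 ± 0.39 in heme mice and 9.09 ± 0.56 in controls (SD, n = 9 and 6). They differed by -0.90 ± 0.22 on the log2 scale (SE), which is 1.87-fold lower, with an adjusted p of 0.0032 in limma.

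Hoxb3, which acts in the hindbrain and the pharyngeal region of the embryo, ran from 8.11 to 9.09 in heme mice with a median of 8.79, and from 9.00 to 10.05 in controls with a median of 9.36. Of the 9 heme mice 7 lay below all controls. The log2 fold change was -0.70 ± 0.17 (SE), 1.63-fold lower, with an adjusted p of 0.00293 in limma. A further probe set of Hoxb3 ran from 6.71 to 7.50 in heme mice and from 7.64 to 8.64 in controls, without overlap, and differed by -0.88 ± 0.16 (SE, adjusted p 0.000285 in limma over 15717 probe sets, of which 24.3% were lower and 26.1% higher in heme mice).

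**Figure D2:**
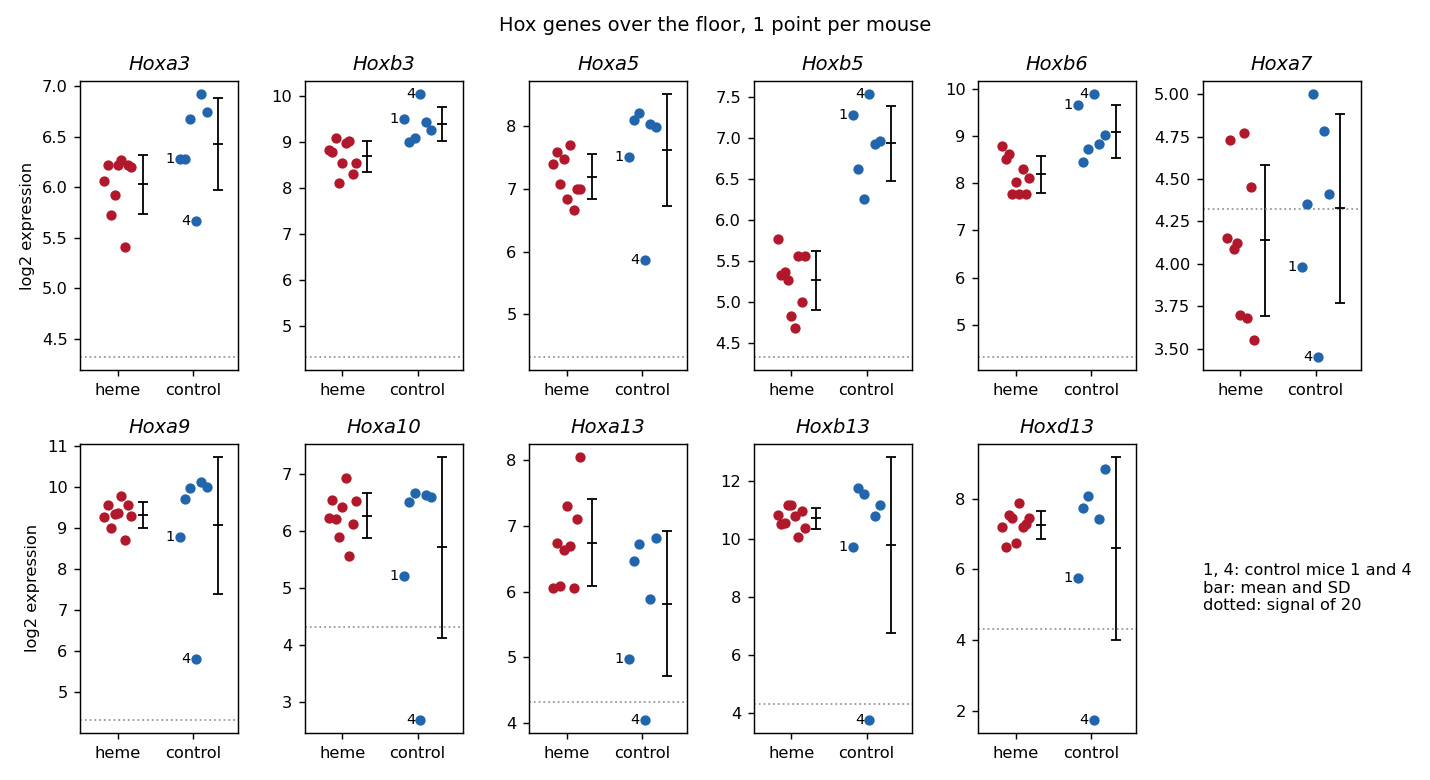
Log2 expression of the 11 tested Hox genes in every mouse, with heme mice left of control mice in each panel, 1 point per mouse, a bar for the mean and SD of each group, control mice 1 and 4 numbered and a dotted line at the floor of 4.32. Hoxb5 is lower in every heme mouse than in every control, and in Hoxa9, Hoxa10, Hoxb13 and Hoxd13 a single control point, mouse 4, lies under all others, below the floor in all of these but Hoxa9.

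Anterior cluster A genes lay lower in heme mice without passing the test on all 15 arrays, except Hoxa3 when arrays were weighted (-0.59, adjusted p of 0.0106 in limma). Hoxa3, which is needed for the thymus and parathyroid in the mouse, ran from 5.41 to 6.27 in heme mice (median 6.20) and from 5.67 to 6.92 in controls (median 6.48). Its log2 fold change was -0.40 ± 0.18 (SE) with an adjusted p of 0.0684 in limma. Control mouse 4, at 5.67, was the lowest control. Without it the fold change was -0.55 with an adjusted p of 0.0066 in limma, and all 9 heme mice lay below the other 5 controls. Another Hoxa3 probe set, over the floor on 2 arrays, averaged 4.10 in both groups.

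Hoxa5, which acts in the mesenchyme of the foregut and its derivatives, ran from 6.66 to 7.69 in heme mice (median 7.07) and from 5.86 to 8.21 in controls (median 8.00). Control mouse 4 was at 5.86, below every heme mouse, and the other 5 controls were at 7.50 to 8.21. The log2 fold change was -0.42 ± 0.30 (SE) with an adjusted p of 0.249 in limma on all mice, and -0.77 with an adjusted p of 0.0016 without control mouse 4. A further Hoxa5 probe set, of a type that can pick up related sequences, went the other way, at 5.13 ± 0.36 in heme mice and 4.71 ± 0.19 in controls (SD, n = 9 and 6), a difference of 0.43 ± 0.15 (SE, adjusted p 0.0258 in limma over probe sets). The direction of Hoxa5 therefore depends on the probe set. Hoxa7, close to the floor, ran from 3.55 to 4.77 in heme mice and from 3.45 to 5.00 in controls and differed by -0.19 ± 0.24 (SE).

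The posterior genes did not pass the test on all mice. Hoxb13, which marks the hindgut end of the axis and is known from the prostate, ran from 10.09 to 11.17 in heme mice with a median of 10.81. In controls it ran from 3.77 to 11.78 with a median of 11.00. Control mouse 4 gave the 3.77, under the floor, and the other 5 controls lay between 9.72 and 11.78, on average 103-fold over the floor. The log2 fold change was 0.92 ± 0.92 (SE), with an adjusted p of 0.413 in limma and an interval from -1.02 to 2.86.

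Hoxd13, which shapes digits and the anal region, ran from 6.62 to 7.89 in heme mice (median 7.29) and from 1.74 to 8.83 in controls (median 7.59). Control mouse 4 was at 1.74, under the floor, and control mouse 1 at 5.74 was the next lowest. The other 5 controls were on average 9.47-fold over the floor. The fold change was 0.67 ± 0.78 (SE) on the log2 scale with an adjusted p of 0.492 in limma, and a further Hoxd13 probe set gave 0.14 ± 0.45.

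Hoxa13, the partner of Hoxd13 in limb and hindgut, ran from 6.06 to 8.05 in heme mice (median 6.69) and from 4.05 to 6.81 in controls (median 6.17). Heme mouse 9 gave the 8.05, and 3 of 9 heme mice lay above all controls. The log2 fold change was 0.93 ± 0.41 (SE) with an adjusted p of 0.0685 in limma, and it was 0.58 with an adjusted p of 0.18 without control mouse 4. Without control mouse 3 it was 1.11 with an adjusted p of 0.0408, and without control mouse 7 it was 1.13 with an adjusted p of 0.0379, so single controls move it over and under the threshold.

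Hoxa9 and Hoxa10, known from blood stem cells and from the uterus, stand between these groups in the cluster. Hoxa9 ran from 8.71 to 9.78 in heme mice (median 9.33) and from 5.80 to 10.12 in controls (median 9.84), and Hoxa10 from 5.55 to 6.93 in heme mice (median 6.22) and from 2.69 to 6.66 in controls (median 6.55). Control mouse 4 gave both minima. Their log2 fold changes were 0.25 ± 0.51 and 0.55 ± 0.49 (SE), with adjusted p of 0.701 and 0.364 in limma.

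In control mouse 4 the tested genes of cluster A, Hoxb13 and Hoxd13 read below the mean of the other controls, and the anterior cluster B genes read above it. Values under the floor have no order, so they were set at the floor for what follows, which was decided with these values known, and a gap to a value there is a lower bound. Control mouse 4 was the lowest control in 7 of the 11 Hox genes (Hoxa3, Hoxa5, Hoxa9, Hoxa10, Hoxa13, Hoxb13 and Hoxd13), against 19.7% of all tested genes, and the highest in Hoxb3, Hoxb5 and Hoxb6, against 20.3%. It lay below all other 14 arrays in 6 of the 11, the same genes without Hoxa3, against 9.25% of all tested genes. The gap reached 2 log2 units in 2 of the 11, Hoxb13 and Hoxa9, against 16 genes or 0.173% of all tested. It was at least 5.40 for Hoxb13, 2.91 for Hoxa9, at least 1.42 for Hoxd13, at least 0.88 for Hoxa10, 0.81 for Hoxa5 and at least 0.66 for Hoxa13. In Hoxb3, Hoxb5 and Hoxb6 control mouse 4 lay above all other 14 arrays, against 8.75% of all tested genes, by gaps of 0.56, 0.25 and 0.22. No heme mouse read above all controls in these genes. Being the highest control therefore already put control mouse 4 above all other arrays, and this is no separate result. Hoxa9 was 15.1-fold below the mean of the other controls. A control was known beforehand to stand far apart in Hoxb13, and Hoxb13 is among the genes counted here. The counts and shares therefore describe this mouse and are no test against chance.

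Cell type markers of control mouse 4 were read beside these values. The summed epithelial signal was 84802, within the range of the heme mice, its smooth muscle sum was 559, the lowest of the controls, and its stromal sum was 1190, also the lowest of the controls. The part of these cells in the Hox values was not tested.

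Control mouse 1 leaned the same way with smaller differences. Control mice 4 and 1 were the lowest and the next lowest control in 6 of the 11 genes (Hoxa5, Hoxa9, Hoxa10, Hoxa13, Hoxb13 and Hoxd13), a pattern in 8.26% of tested genes, and the highest and the next highest in 3 (Hoxb3, Hoxb5 and Hoxb6), a pattern in 6.37%. This pair was picked out after its Hox values were seen, so these shares are no test of the pattern. Hoxb13 was 9.72 in control mouse 1, against 10.82 to 11.78 in control mice 2, 3, 6 and 7. No heme mouse was as low as control mouse 4 in Hoxb13 or Hoxd13.

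**Figure D3:**
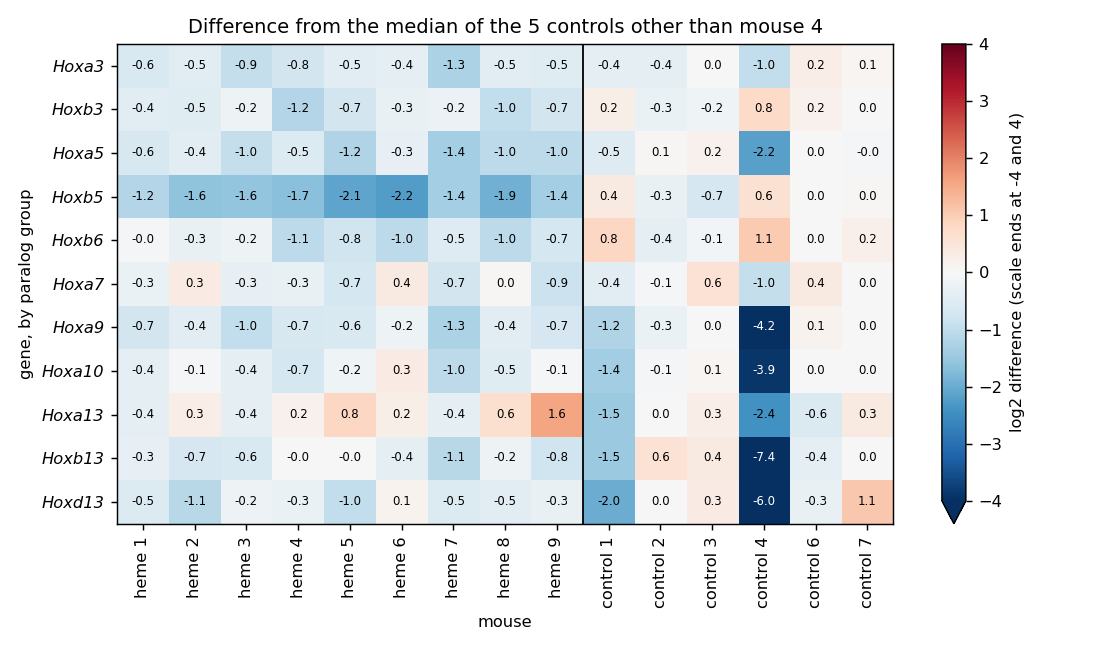
Deviation of each mouse, heme mice before control mice, from the median of the 5 controls other than mouse 4, in log2 units, for the 11 tested Hox genes ordered by paralog number. Control mouse 4 is negative in the cluster A genes, anterior Hoxa3, Hoxa5 and Hoxa7 included, and in Hoxb13 and Hoxd13, and positive in Hoxb3, Hoxb5 and Hoxb6. Its readings of Hoxa7, Hoxa10, Hoxa13, Hoxb13 and Hoxd13 are under the floor, so the depth of those cells is not to be read as exact.

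Genes outside the Hox set were read in the same way, naming the 10 with the widest gaps below all other arrays before values were set at the floor. Atp12a, a proton and potassium pump of distal colon, read 5.02 in control mouse 4, against 11.65 to 12.73 in heme mice and 10.77 to 12.84 in the other controls, a gap of 5.75 that is wider than the bound for Hoxb13. Insl5, a hormone of colonic endocrine cells, read 4.16, under the floor, against 8.32 to 10.18 in heme mice and 7.90 to 10.78 in the other controls. Nxpe4, B3gnt7, Sval1, B3gnt5, Tgm3 and Nt5e, with Hoxb13 and Hoxd13, completed the 10. With values at the floor Hoxb13 was the second of 9257 genes, Hoxa9 the 11th and Hoxd13 the 24th. In the opposite direction the gaps were smaller, from 1.15 to 0.66. Fabp6, the bile acid binding protein of the ileum, read 12.14, against 7.03 to 8.35 in heme mice and 9.79 to 11.05 in the other controls. Sct, which encodes secretin, read 9.27, against 6.52 to 7.09 in heme mice and 6.72 to 8.12 in the other controls. The other 8 were Tbx3, ccdc198, Saa3, Ccl25, Hmga2, Myrip, Slc8a1 and Enpep. All 10 but Tbx3 (adjusted p of 0.117 in limma) were also called lower in heme mice, against 26.4% of all tested genes. None of the 10 with the widest gaps below was called in either direction.

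**Figure D4:**
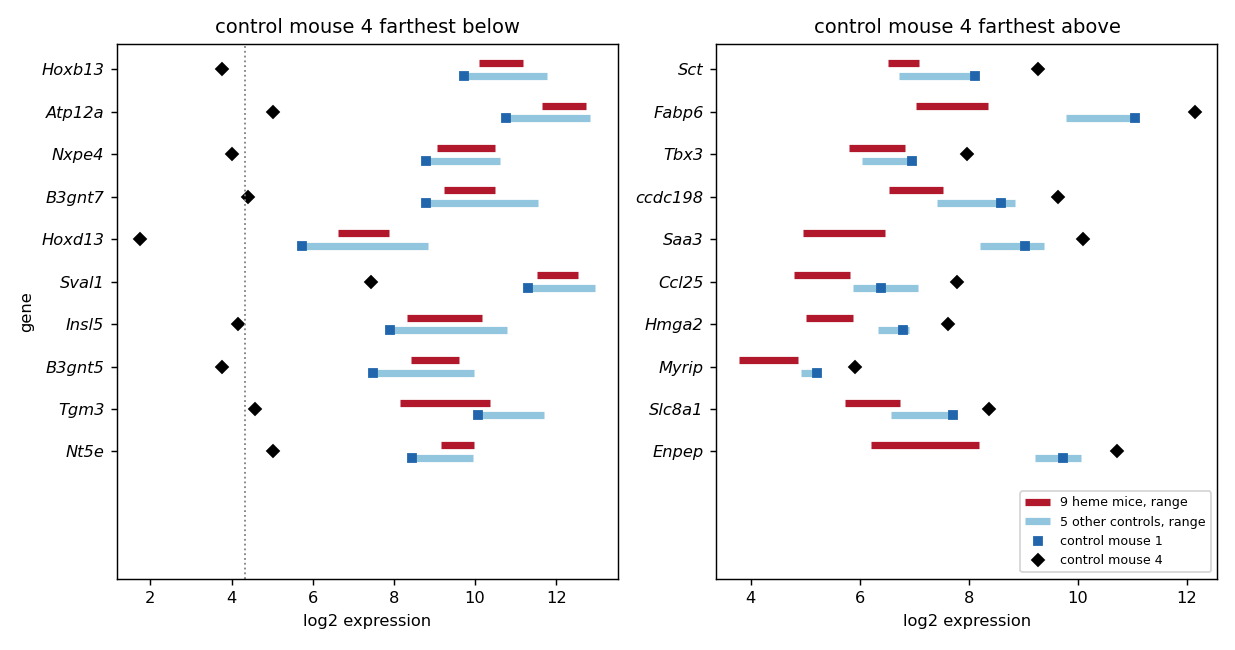
The 10 genes in which control mouse 4 read farthest below the other 14 arrays (left) and the 10 in which it lay farthest above them (right), with log2 expression across, red bars for the range of 9 heme mice, light blue bars for the range of the 5 other controls, squares for control mouse 1 and diamonds for control mouse 4. A dotted line on the left marks the floor. Hoxb13, Nxpe4, Hoxd13, Insl5 and B3gnt5 lie under it in control mouse 4, so their gaps are bounds, and the place of Hoxd13 among the 10 rests on such a reading.

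Leaving control mouse 4 out changed which Hox genes passed. Then 5 of 11 genes were lower in heme mice (Hoxa3, Hoxa5, Hoxb3, Hoxb5 and Hoxb6) and 0 higher, against 26.1% and 26.5% of all tested genes, and 10 of 11 fold changes were negative, with a median of -0.40. Hoxb3, Hoxb5 and Hoxb6 then differed by -0.57, -1.56 and -0.75. The groups did not overlap in 2 of the 11, Hoxa3 and Hoxb5, against 10.7% of all tested genes. Hoxb13 turned to -0.28, Hoxd13 to -0.30 and Hoxa9 to -0.40, none of them past the threshold. Where control mouse 4 was the lowest control, leaving it out had to move the fold change down. The counts in this setting are therefore no independent test.

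With control mouse 1 left out as well, a setting chosen after the values were seen, 8 of 11 genes were lower in heme mice and 0 higher, against 25.0% and 24.8% of all tested genes. The 3 that joined were Hoxa9 at -0.63, Hoxb13 at -0.61 with an adjusted p of 0.0256 and Hoxd13 at -0.76 with an adjusted p of 0.0211 in limma. This set leaves 4 controls, and both mice were left out because of their Hox values, so the count describes these mice and is no independent test. Hoxb5 was still lower by the widest margin, at -1.44.

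**Figure D5:**
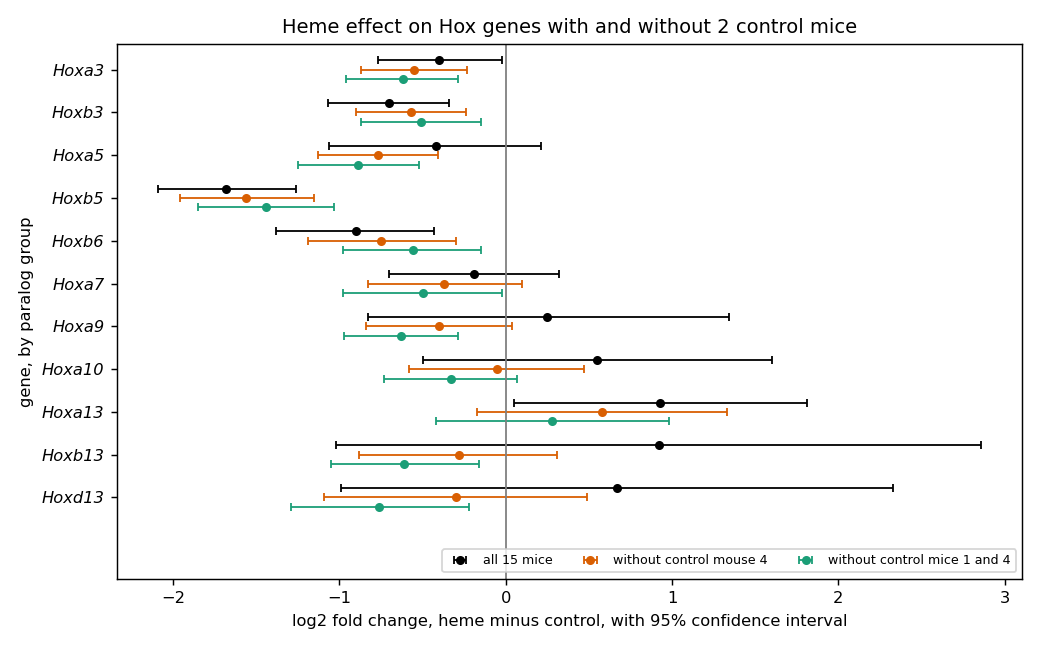
Log2 fold change of heme minus control with its 95% confidence interval for the 11 tested Hox genes, ordered by paralog number, on all 15 mice (black), without control mouse 4 (orange) and without control mice 1 and 4 (green). Hoxb3, Hoxb5 and Hoxb6 stay below 0 in all 3 settings, whereas Hoxa9, Hoxa10, Hoxb13 and Hoxd13 change sign when control mouse 4 is left out.

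Smooth muscle signal also moved with these estimates. With the mean of the smooth muscle markers as a covariate, Hoxa13 was higher in heme mice at 1.71 with an adjusted p of 0.0341 and Hoxb13 at 3.37 with an adjusted p of 0.035 in limma. With that covariate 2 of 11 genes were higher and 3 lower, against 19.1% and 18.8% of all tested genes. Hoxa5 then differed by 0.12. The 4 markers averaged in this covariate themselves fell in heme mice. Control mouse 4, with Hoxb13 under the floor, had the lowest control sum of them, at 559. Whether this mouse carries the Hoxb13 estimate was not tested. Without the covariate no heme mouse lay above all controls in Hoxb13, and its median was 10.81 in heme mice and 11.00 in controls. With the mean of the stromal markers as a covariate, a setting chosen after the values were seen, 1 gene was higher (Hoxa13, 0.98 with an adjusted p of 0.0445) and 3 lower, against 27.9% and 27.5% of all tested genes. Without control mice 2 and 4 and heme mouse 6, 0 genes were higher and 5 lower, against 25.6% and 26.5% of all tested genes.

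Among the 9 heme mice, which hold no mouse as far apart as control mouse 4, the other 10 Hox genes were set against Hoxb13. Pearson's r ran from -0.62 for Hoxb3 (Spearman's rho -0.57) to 0.55 for Hoxa9 (rho 0.42). In exact two-sided permutation tests adjusted over 10 relations none passed, with the smallest p at 0.0744 for Hoxb3 (adjusted 0.37) and the smallest for rho at 0.121 (adjusted 0.539). Hoxb5 and Hoxb6 had r of -0.54 and -0.45, Hoxa13 0.16 and Hoxd13 -0.01. Without heme mice 7 and 9, the farthest from the median of Hoxb13, r was -0.77 for Hoxb3 and 0.09 for Hoxa9.

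Genes that act with or on Hox genes were read from lists of cofactors, regulators, retinoid genes and gut region genes. Shares called are to be read against the 27.2% higher and 26.4% lower of all tested genes. Of 9 cofactors 3 were tested, 1 rose and 0 fell, with a median log2 fold change of 0.14. Pbx3, which binds DNA together with Hox proteins, was 6.54 ± 0.23 in heme mice and 5.84 ± 0.82 in controls (SD, n = 9 and 6), with an adjusted p of 0.0356 in limma, and it did not pass when heme mouse 1, 2, 3 or 9 or control mouse 1, 3, 4 or 6 was left out (0.51 with an adjusted p of 0.0944 without control mouse 4). Of 23 regulators 18 were tested, 2 rose and 5 fell, a share near that background, with a median of -0.13. Cbx7, a Polycomb subunit, was under the floor in every heme mouse (3.57 to 3.85) and over it in every control (4.59 to 5.03), at least 1.40-fold lower in heme mice. It entered the test, and the count of 5, through its controls alone. Kmt2a, the methyltransferase that keeps Hox genes active, was 6.42 ± 0.54 in heme mice and 7.20 ± 0.33 in controls, with an adjusted p of 0.00938 in limma, and it did not pass with the smooth muscle covariate (-0.50, adjusted p 0.267). Cdx2, the intestinal homeodomain factor upstream of Hox genes, differed by 0.40 ± 0.30 (SE) with an adjusted p of 0.287.

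Of 14 retinoid genes 4 were tested, 1 rose and 3 fell, with a median of -0.30, too few to set a share against that background. Aldh1a1, which makes retinoic acid, an inducer of Hox genes in the embryo, was 13.22 ± 0.13 in heme mice and 12.25 ± 0.42 in controls (SD, n = 9 and 6). All 9 heme mice lay above all controls, a pattern in 11.2% of all tested genes. Rxrb, a retinoid receptor, fell by 0.38 on the log2 scale with an adjusted p of 0.0192 in limma, and did not pass without control mouse 4 (adjusted p 0.0511). Of 12 gut region genes 2 were tested, 0 rose and 1 fell, Gata6, an endodermal transcription factor, at -0.33 ± 0.10 (SE) with an adjusted p of 0.0087.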

How the data were processed

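Expression was measured on 15 Affymetrix arrays, 1 per mouse, 9 of heme mice and 6 of controls. The authors deposited log2 values per probe set, made with GCRMA 2.22.0 per the submitters' processing notes, a method that removes background by probe sequence and scales arrays to each other. With no detection calls, a signal of 20 served as a floor.

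Of 45101 probe sets, 34958 have 1 symbol in the array annotation and 932 several. Symbols, and promoter windows from RefSeq, were matched by name. Linear models (lmFit and eBayes of limma 3.58.1, R 4.3.3) set heme against control, and p-values were adjusted over 9257 genes after Benjamini and Hochberg, with a threshold of 0.05. Correlations used SciPy 1.17.1. The procedure was tested on simulated data with 200 changed genes.

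The rule for named genes took all Hox members, the 2 called genes with the largest change in each of the cofactor, regulator, retinoid and gut region lists, and the 10 genes on each side in which control mouse 4 lay farthest from the other arrays. Others named, including Cdx2, were chosen after their values were seen. The members and lists were chosen with earlier results of these data known. Alternatives were the filter, probe set rule, scaling, weights, covariates, a replicate block and leaving out mice. Control replicate 5 was not analysed here.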

Additional observations from a re-analysis of the deposited data

Results flagged for a closer look

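In control mouse 4 the values of Hoxa5 (5.86), Hoxa9 (5.80), Hoxa10 (2.69) and Hoxb13 (3.77) each lay far under the other controls, with a gap to the next control over Dixon's 95% critical value for the group's range. The readings of Hoxa10 and Hoxb13 are under the floor, and with them at the floor the ratio of gap to range was still over that value for Hoxb13 (0.723) and under it for Hoxa10 (0.374), so Hoxa10 stands apart only by a reading under the floor. The other 5 controls were at 7.50 to 8.21 for Hoxa5, 8.78 to 10.12 for Hoxa9, 5.20 to 6.66 for Hoxa10 and 9.72 to 11.78 for Hoxb13. In heme mice Kmt2a was highest in mouse 9, at 7.75, with the other heme mice at 5.94 to 6.61. In all 34 groups of mice and genes were examined and 5 stood apart, and 4 of the 5 are the same mouse. Chance gives about 1 in 20 for a single group. The groups share mice, and a control was known beforehand to stand far apart in Hoxb13, so the count is no test against chance.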

How the results depend on the processing

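Hoxb3, Hoxb5 and Hoxb6 were lower in heme mice under each alternative that tested them, and Hoxb5 passed wherever it was tested. With the floor of 100 Hoxb5 was not tested, and 2 Hox genes were lower. Hoxb3 did not pass in a fit that took the replicate number as a replicate block (-0.59, adjusted p of 0.0806 in limma), which left 2 Hox genes lower. With that block Hoxb5 differed by -1.61 and Hoxb6 by -0.80. Same-numbered mice did not deviate together (correlations of -0.195 to 0.196), so the numbers do not pair the mice, and heme mice 5, 8 and 9 share no number with a control. Leaving out each mouse in turn gave 0 to 1 Hox genes higher and 3 to 5 lower. The count higher was 2 with the smooth muscle covariate, 1 with the stromal covariate and 1 over single probe sets. The count lower was 4 with no filter, and 4 with array weights, where Hoxa3 passed. It was 5 without control mice 2 and 4 and heme mouse 6, and 8 without control mice 1 and 4. Hoxa5 turned to 0.00 with the mean of probe sets and 0.12 with the smooth muscle covariate. Leaving out single mice moved Hoxa9 between -0.40 and 0.46, Hoxa10 between -0.05 and 0.74, Hoxb13 between -0.28 and 1.32 and Hoxd13 between -0.30 and 1.12, each negative only without control mouse 4. Hoxa9 was -0.11 with array weights. Without control mice 2 and 4 and heme mouse 6, Hoxa9, Hoxa10, Hoxb13 and Hoxd13 were -0.46, -0.09, -0.10 and -0.33, and without control mice 1 and 4 they were -0.63, -0.33, -0.61 and -0.76. The cause was not tested. Among heme mice, r with Hoxb13 without the 2 farthest mice was -0.33 for Hoxa5, -0.55 for Hoxa7, -0.38 for Hoxa10 and 0.02 for Hoxd13. Without single mice it ran from -0.07 to 0.59 for Hoxa5, -0.03 to 0.48 for Hoxa7, -0.42 to 0.43 for Hoxa10, -0.14 to 0.64 for Hoxa13 and -0.19 to 0.28 for Hoxd13. Cofactors higher were 0 with no filter, a floor of 100, the block or without control mice 1 and 4 (0 to 1 without single mice), and 1 was lower with no filter. Regulators higher were 1 with no filter, quantile normalization or without control mice 2 and 4 and heme mouse 6, and 0 with the mean of probe sets, the block or the smooth muscle covariate (1 to 2 without single mice). Regulators lower were 3 with the floor of 100 or the smooth muscle covariate. Retinoid genes higher were 2 with no filter, and 1 was lower with the block. Gut region genes lower were 0 with the block or without control mice 1 and 4. Genes near the floor, such as Hoxa7, are limited by signal over background.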

Other observations

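Transcripts that lie beside or opposite Hox genes were read from their own probe sets, chosen after their values were seen. Hoxa11os, the antisense transcript of Hoxa11, was 7.67 ± 0.46 in heme mice and 7.96 ± 2.21 in controls (SD, n = 9 and 6), with control mouse 4 at 3.80 and control mouse 1 at 7.05, while Hoxa11 itself was not over the floor on any array. The median of Hoxa11os was 7.74 in heme mice and 9.16 in controls. Control mice 2, 3, 6 and 7 lay at 9.12 to 9.31, above the heme maximum of 8.42. Over all mice Hoxa11os differed by -0.28 ± 0.68 (SE), with an adjusted p of 0.744 in limma. Hoxd3os1 ran from 6.27 to 7.28 in heme mice and from 6.89 to 8.32 in controls, with control mice 4 and 1 the highest at 8.32 and 8.30. The groups differed by -1.01 ± 0.20 on the log2 scale (SE), with an adjusted p of 0.000558 in limma, while the Hoxd3 probe set was under the floor on all arrays, and a probe set shared by Hoxd4 and Hoxd3 passed it on 2 arrays. Hoxb5os was 4.34 ± 0.47 in heme mice and 5.01 ± 0.63 in controls, a log2 fold change of -0.67 ± 0.26 (SE) with an adjusted p of 0.037, and control mouse 4 was the highest at 6.02.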
